A study of Mus musculus with 6 samples.

Results

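BMP genes were measured by every array probe that the platform annotation assigns to 10 genes of the pathway: the ligands Bmp2, Bmp4 and Bmp7, the type I receptor Bmpr1a, the transcriptional targets Msx1, Msx2, Id1, Id2 and Id3, and the inhibitory Smad gene Smad6. All 10 had at least 1 probe, of 19057 genes with a named probe, and together they had 16 probes. The tissue was the lens-forming region of E10.5 mouse embryos of a mixed FVB;129 background, hybridised on 6 Illumina bead arrays, with 3 WT and 3 CBP/p300 DCKO samples. By the article's methods both genotypes carried CBP and p300 alleles flanked by loxP sites (CBP/p300 fl/fl), and the DCKO also carried Pax6-Cre, in which a lens enhancer and promoter of Pax6 drive the recombinase in the head surface ectoderm that gives rise to lens and cornea. The sample records call the genotypes wild type and CBP/p300-/-, and they call the laser-microdissected tissue lens placode in WT and surface ectoderm in DCKO, so that genotype and named tissue cannot be told apart. The sources differ on the replicates, because the article describes 3 biological replicates, whereas the records describe pooled RNA from 3 embryos of each genotype, amplified in triplicate, in which case p-values measure only technical spread.

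BMPs are secreted dimers of the TGF-beta family that bind type I and type II serine/threonine kinase receptors. The type I receptor phosphorylates Smad1, Smad5 and Smad9, which enter the nucleus with Smad4, bind DNA at sites such as GGCGCC and recruit the acetyltransferases CBP and p300 to target genes. In the mouse eye, Bmp4 from the optic vesicle and Bmp7 from the surface ectoderm are known to be needed for lens induction. Id genes and Msx genes are among the most widely used readouts of the pathway.

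Bmp4, Msx1 and Id2 were higher in DCKO by their brightest probe, the one whose mean over the 6 arrays was highest. Their promoter sequences are shown because, of the 10 genes, these passed the threshold given below. RefSeq promoter sequences (build GRCm38.p6) matched 7 of the 10 genes. The 250 bases upstream of the annotated start are printed on the strand of the gene, ending at the base before the start of the transcript that the table uses, and capitals mark GGCGCC or GGAGCC, the sites searched for BMP Smads, read on either strand.
Bmp4, chr14:46390670-46390919, minus strand: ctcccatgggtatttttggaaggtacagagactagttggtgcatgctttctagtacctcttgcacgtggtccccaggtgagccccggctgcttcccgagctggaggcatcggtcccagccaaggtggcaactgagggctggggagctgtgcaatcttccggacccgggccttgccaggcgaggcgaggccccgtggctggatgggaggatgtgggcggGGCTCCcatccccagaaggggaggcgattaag
Msx1, chr5:37824586-37824835, minus strand: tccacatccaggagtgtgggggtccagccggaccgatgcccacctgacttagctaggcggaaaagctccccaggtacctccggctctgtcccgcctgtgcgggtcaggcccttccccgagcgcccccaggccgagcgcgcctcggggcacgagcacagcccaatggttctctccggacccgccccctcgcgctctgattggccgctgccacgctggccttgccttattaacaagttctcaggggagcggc
Id2, chr12:25096093-25096342, minus strand: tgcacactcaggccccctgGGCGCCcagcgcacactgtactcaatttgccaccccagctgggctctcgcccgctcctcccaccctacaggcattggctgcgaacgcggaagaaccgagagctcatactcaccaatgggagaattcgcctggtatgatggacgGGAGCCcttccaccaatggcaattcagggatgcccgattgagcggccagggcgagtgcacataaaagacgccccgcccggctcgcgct
GGCGCC was found in the window of Id2, 231 bases before the start, and in that of Bmpr1a. GGAGCC was found in the windows of Bmp4, Id2, Id3, Msx2 and Smad6, and neither site was found in that of Msx1. Of 32851 promoter windows of this length, 9.59% held GGCGCC and 26% held GGAGCC, and the matches did not overlap each other in these genes. GTCTAGAC, a palindromic Smad site, and TGACGTCA, the full site of the CBP partner CREB, were in none of the 7 windows and in 0.167% and 1.55% of all windows. For Bmpr1a and Smad6 that start lies inside the annotated span of the gene, so their windows lie within or overlap the gene. A match describes letters only.

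The bead intensities were background-corrected, quantile normalized and put on a log2 scale. A probe was tested with limma if its detection p, which sets it against the negative controls of its array, was under 0.05 on at least 3 arrays, and it counted as called when its p-value, adjusted by Benjamini-Hochberg over the 19552 tested probes, was under 0.05. Arrays detected 18081 to 19769 of 45281 probes, and the dimmest detected probe of an array lay at 5.36 to 5.53, so values near 5 are background. Arrays of 1 genotype correlated at 0.930 to 0.934 in WT and 0.879 to 0.883 in DCKO, and at 0.838 to 0.857 between genotypes. Of the targeted genes, Crebbp had 0 of 3 tested probes called, and Ep300 had 1 of 4 called lower, at least 2.86-fold (limma adjusted p = 0.0158). Where these probes lie relative to the deleted exons is not known here, so they do not check the deletion. Lens fibre markers summed to 15065 to 16364 in WT and 539 to 628 in DCKO on the linear scale of normalized intensity, with Cryaa and Crybb3 undetected in DCKO. Surface ectoderm markers summed to 7570 to 8708 in WT, most of it Cdh1, and to 7067 to 8305 in DCKO, where Cdh1 was a smaller part. In these bulk samples, fewer cells of a type and less RNA per cell cannot be told apart.

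**Figure D1:**
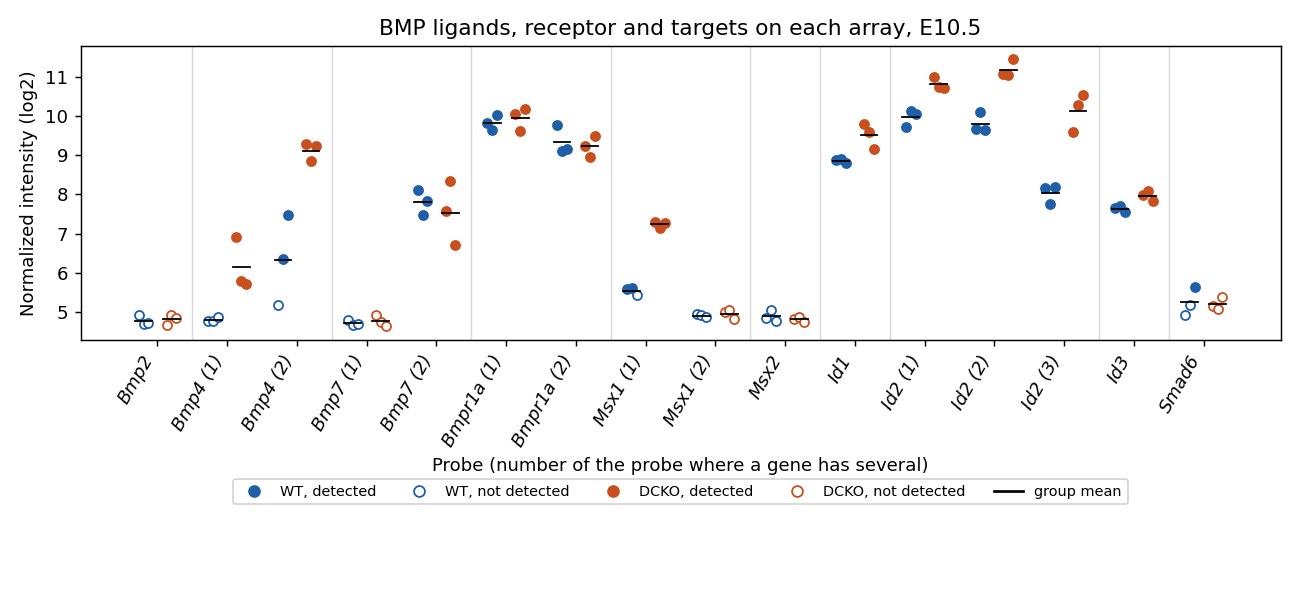
Normalized log2 intensity (y axis) of all 16 probes of the 10 BMP genes (x axis) on each array, with filled points for arrays on which the probe was detected, open points for the others and a line at each group mean (n = 3 arrays per genotype). The DCKO arrays of Bmp4 probe 2, Msx1 probe 1 and the Id2 probes lie above all WT arrays, while those of Bmp7 and Bmpr1a overlap the WT arrays.

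Of the 16 probes, 11 passed the detection filter, and these belonged to 7 of the 10 genes. With limma 4 of the 11 were called higher in DCKO and 0 lower, against 1.77% and 2.81% of all tested probes. The DCKO arrays lay wholly above the WT arrays for 8 of the 11 and wholly below for 0, against 13.0% and 14.4% of all tested probes. By the brightest tested probe of each gene, 3 were called higher in DCKO and 0 lower with limma, against 2.10% of all 10123 tested genes called higher and 2.78% called lower. At an unadjusted p under 0.05, 4 were higher and 0 lower, against 10.6% of all tested genes higher and 1067 of the 10123 lower. The median difference of the 7 was 0.66 on the log2 scale, beside 0.0123 over all tested genes, and 5 had DCKO arrays wholly above the WT arrays, as did 14.4% of all tested genes. The 10 genes were chosen with earlier results of these data known, and Bmp4 probe 1 passed the filter through its DCKO arrays alone, so these counts describe the 7 genes and do not set them apart. Without any 1 array, only 1 of the 3 stayed called: Msx1 without each array other than WT replicate 3, and Bmp4 without that array.

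Among the ligands, Bmp4 was higher in DCKO. Its brighter probe, ILMN_1215252, read 5.17, 6.35 and 7.46 on the WT arrays and 9.28, 8.86 and 9.23 on the DCKO arrays, on the log2 scale. Every DCKO array exceeded every WT array, but WT spanned more than 2 log2 units and the probe was not detected in WT replicate 1. The means were 6.33 ± 1.14 in WT and 9.12 ± 0.23 in DCKO (SD, n = 3), a difference of 2.79 ± 0.56 (SE) or 6.93-fold, with a 95% interval of 2.73-fold to 17.5-fold (limma adjusted p = 0.0455). The gene lies on chromosome 14 of GRCm38.p6, from 46383525 to 46390669. The call was lost without WT replicate 1 (limma adjusted p = 0.0827), WT replicate 2 (0.145), DCKO replicate 1 (0.104), DCKO replicate 2 (0.0885) or DCKO replicate 3 (0.103), and kept without WT replicate 3 (0.0380). It was also lost in the authors' processed values (0.0935) and without a detection filter (0.103), and without background correction the difference was 1.48 on the log2 scale.

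The dimmer Bmp4 probe read 4.76, 4.77 and 4.89 in WT, where it was not detected, and 6.91, 5.79 and 5.73 in DCKO, where it was detected on all 3 arrays. The groups did not overlap, and the DCKO mean was at least 1.63-fold above the dimmest detected level of the WT arrays, but the probe did not pass (limma adjusted p = 0.0974).

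**Figure D2:**
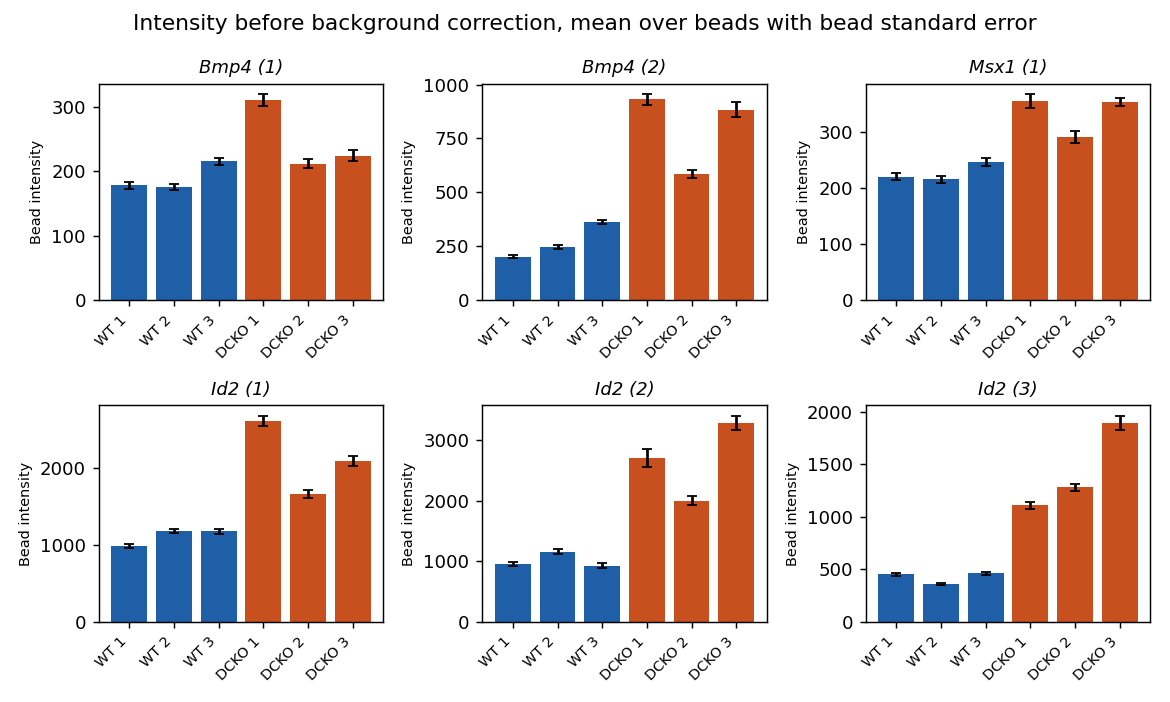
Mean bead intensity before background correction and normalization (y axis, linear, from 0) of the tested probes of Bmp4, Msx1 and Id2 on each array (x axis), with the standard error over the beads of that array. For Bmp4 probe 2 the WT arrays lie at 201 to 363 and the DCKO arrays at 585 to 931, and because arrays differ in overall brightness at this stage, with median signals of 193 to 235, small differences between bars cannot be read.

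Bmp7, a ligand made by the surface ectoderm and lens, was measured by 1 tested probe, with 8.11, 7.47 and 7.83 in WT and 7.57, 8.33 and 6.71 in DCKO. The DCKO arrays lay on both sides of the WT arrays and were the more spread. The difference was -0.27 ± 0.44 on the log2 scale, with a 95% interval of -1.32 to 0.79 (limma adjusted p = 0.790), which leaves room for a change of more than 2-fold downwards. Its sign turned to 0.15 without DCKO replicate 3. The article lists Bmp7 among the transcripts lower in DCKO on these arrays, tested in GenomeStudio after cubic spline normalization. It proposes that Bmp7 expression in the lens placode could matter for autocrine signalling. In the authors' processed values the difference was also -0.27 (limma adjusted p = 0.804). The decrease was therefore not called with limma in either set of values, and the GenomeStudio test was not repeated. The other Bmp7 probe and the single Bmp2 probe were not detected on any array. Bmp2 read 4.92, 4.71 and 4.71 in WT and 4.68, 4.94 and 4.84 in DCKO, which is background on both sides.

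Bmpr1a, a type I receptor for these ligands, did not pass by either of its probes. The brighter read 9.82, 9.64 and 10.02 in WT and 10.05, 9.62 and 10.19 in DCKO, a difference of 0.13 with a 95% interval of -0.48 to 0.73 (limma adjusted p = 0.831). The dimmer read 9.78, 9.12 and 9.15 in WT and 9.23, 8.95 and 9.50 in DCKO, a difference of -0.12 (limma adjusted p = 0.864). The genotypes overlapped for both probes, and the receptor was detected on all 6 arrays.

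Msx1, a homeobox transcription factor that BMP4 induces in craniofacial tissue, was higher in DCKO. Probe ILMN_1246173 read 5.59, 5.60 and 5.43 in WT, where it was detected on 2 arrays at the edge of background, and 7.30, 7.15 and 7.27 in DCKO. The groups did not overlap, with means of 5.54 ± 0.095 and 7.24 ± 0.080 (SD, n = 3). The measured difference was 1.70 ± 0.20 (SE) or 3.24-fold (limma adjusted p = 0.00932). Because the WT values lie close to background, their small SD and the fold are uncertain. The gene lies on chromosome 5 from 37820491 to 37824585. The call was lost without WT replicate 3 (limma adjusted p = 0.0555), and when the detection filter was remade on the other 5 arrays it was lost without any 1 WT array (0.0678 to 0.0827). Without background correction the difference was 0.58 on the log2 scale. The other Msx1 probe, which the annotation ties to a cDNA clone, was detected on no array. The only probe of its paralogue Msx2, also tied to a cDNA clone, was undetected on all arrays too. It read 4.86, 5.06 and 4.77 in WT and 4.83, 4.88 and 4.74 in DCKO.

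The Id genes encode helix-loop-helix proteins without a DNA-binding region that hold back basic helix-loop-helix factors. The 3 among the 10 genes lay higher in DCKO without overlap, as did 14.4% of all tested genes by their brightest probe. Only Id2 passed. Id4, outside the 10 genes, was not tested. By its brighter probe it was detected on 2 DCKO arrays, and the genotypes overlapped. Id2 had 3 tested probes. The brightest, ILMN_2887239, read 9.67, 10.10 and 9.66 in WT and 11.06, 11.04 and 11.45 in DCKO. The means were 9.81 ± 0.25 and 11.19 ± 0.23 (SD, n = 3), a difference of 1.38 ± 0.25 (SE) or 2.60-fold (limma adjusted p = 0.0360). A second probe read 9.72, 10.12 and 10.06 in WT and 11.01, 10.74 and 10.73 in DCKO, a difference of 0.86 that did not pass (limma adjusted p = 0.0970). The third, tied to a cDNA clone, read 8.18, 7.75 and 8.19 in WT and 9.60, 10.29 and 10.54 in DCKO, a difference of 2.10 or 4.30-fold (limma adjusted p = 0.0194). The 3 probes shared their direction and differed in size. Id2 lies on chromosome 12 from 25093799 to 25096092. Leaving out any 1 array ended the call of this brightest probe, with limma adjusted p of 0.123, 0.0817 and 0.136 without WT replicates 1, 2 and 3 and of 0.0640, 0.0671 and 0.0769 without DCKO replicates 1, 2 and 3. Without DCKO replicate 3 its difference was 1.26, and the second probe then had the higher mean, with a difference of 0.92 (limma adjusted p = 0.140).

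Id1 read 8.87, 8.89 and 8.80 in WT and 9.79, 9.59 and 9.17 in DCKO. The difference of 0.66 on the log2 scale had a 95% interval of 0.081 to 1.24 and did not pass over all probes (limma adjusted p = 0.188). Id3 read 7.64, 7.70 and 7.56 in WT and 7.98, 8.08 and 7.83 in DCKO, a difference of 0.33 with an interval of -0.17 to 0.83 (limma adjusted p = 0.433). For both genes the WT arrays lay close together and below every DCKO array. Whether the 3 Id genes differ from each other in their change was not tested.

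Smad6, which the pathway induces and which blocks its receptors in return, was detected on 1 array, WT replicate 3, and was not tested. It read 4.94, 5.17 and 5.65 in WT and 5.16, 5.07 and 5.38 in DCKO, so the genotypes overlapped at background.

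**Figure D3:**
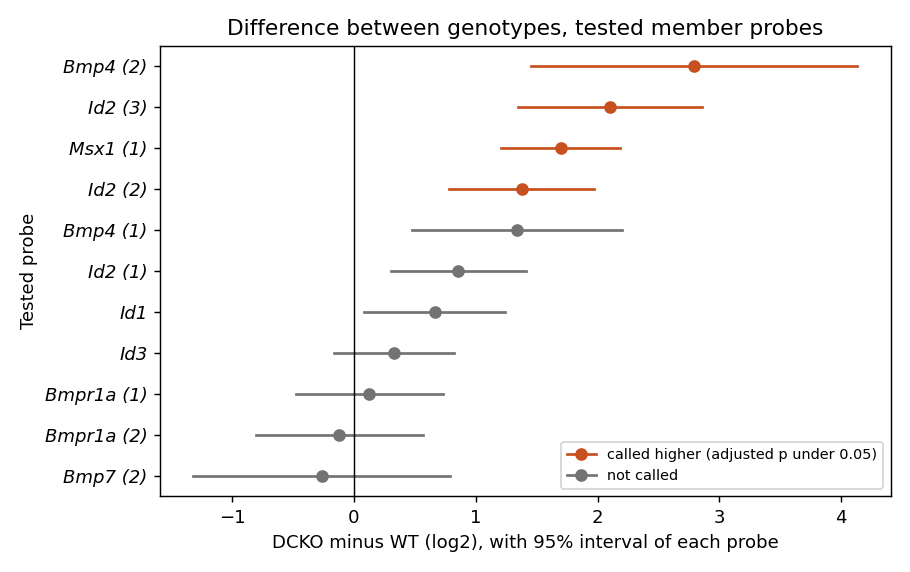
Difference between DCKO and WT on the log2 scale (x axis) with its 95% interval from limma for the 11 tested probes of the BMP genes (y axis). The 4 called probes, of Bmp4, Id2 and Msx1, have intervals above 0, and those of Id3, Bmpr1a and Bmp7 include 0.

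By role, 71 further pathway genes were listed, of which 66 had a probe and 33 a tested one. By their brightest probe 2 were called higher and 3 lower in DCKO with limma, against 2.10% and 2.78% of all tested genes. The median difference was -0.035 on the log2 scale. By list it ran from -0.17 for the 3 tested ligands to 1.67 for the 5 tested response genes, 4 of them positive. None of the 3 tested ligands or 7 tested receptors and co-receptors passed. The type II receptor Bmpr2 differed by -0.13, with a 95% interval of -0.90 to 0.64 (limma adjusted p = 0.871). Acvr1, another type I receptor, read 8.59, 7.52 and 7.54 in WT and 5.82, 6.54 and 6.56 in DCKO. It lay lower in DCKO without overlap, by 1.57 on the log2 scale, and did not pass (limma adjusted p = 0.0789).

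Of 7 tested secreted antagonists and modulators, among 18 with a probe, 1 was called higher in DCKO, 1 lower and 5 were not called. Sostdc1, which encodes a BMP and Wnt inhibitor also known as ectodin, read 7.98, 8.07 and 8.61 in WT and 10.03, 10.32 and 9.67 in DCKO. The groups were well apart, and the difference was 1.78 ± 0.29 (SE) or 3.44-fold (limma adjusted p = 0.0255). Nbl1, an antagonist of the DAN family, read 7.69, 7.52 and 7.08 in WT and was not detected in DCKO, where it was at least 4.01-fold lower (limma adjusted p = 0.00579). The Nbl1 probe passed the detection filter through its WT arrays alone. Without background correction its difference was -0.83 on the log2 scale. Noggin (Nog) was detected on 1 WT array and follistatin (Fst) on none, so neither was tested. The Sostdc1 call was lost when any 1 WT array, DCKO replicate 1 or DCKO replicate 2 was left out (limma adjusted p from 0.0614 to 0.103).

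The receptor-activated Smads did not pass, with -0.18 for Smad1 (limma adjusted p = 0.792) and 0.66 for Smad5 (limma adjusted p = 0.484), and Smad4 had no probe of that name. Other probes of Smad1 lay on the opposite side of 0. The next brightest, detected on all 6 arrays, differed by 0.50 without overlap and did not pass (limma adjusted p = 0.340). Zeb2, a Smad-interacting repressor also expressed in macrophages and mesenchyme, read 9.85, 9.90 and 9.90 in WT and 7.35, 6.51 and 7.28 in DCKO, a difference of -2.83 ± 0.29 (SE) (limma adjusted p = 0.00535). Its other probes shared this direction and differed widely in size, from -0.41 to -5.36. Macrophage markers (6 of 8 tested) summed to 1942 to 2633 in WT and 192 to 291 in DCKO, where Mpeg1 and Cx3cr1 were undetected. The part of macrophages in the Zeb2 result was not tested. The Zeb2 call was kept without each array, but with the detection filter remade on the other 5 arrays it was lost without any 1 WT array (limma adjusted p from 0.0568 to 0.0624).

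Of the 5 tested response genes, Dlx5, a homeobox factor of craniofacial ectoderm and mesenchyme, read 5.28, 5.09 and 5.53 in WT, where 1 array detected it, and 8.50, 8.77 and 8.72 in DCKO. The measured difference was 3.36 ± 0.23 (SE) on the log2 scale (limma adjusted p = 0.00140), but the WT values lie at background, so no fold is given, and the 3 DCKO arrays alone carried the probe through the detection filter. It was 1.48 without background correction. A dimmer Dlx5 probe differed by 0.61 and did not pass. Hey1, a repressor that answers to BMP and Notch, read 9.84, 8.96 and 9.42 in WT and 7.35, 6.45 and 6.77 in DCKO, a difference of -2.55 ± 0.35 (SE) (limma adjusted p = 0.0142). Its call was lost without WT replicate 1 (limma adjusted p = 0.0616) or WT replicate 3 (0.0702).

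**Figure D4:**
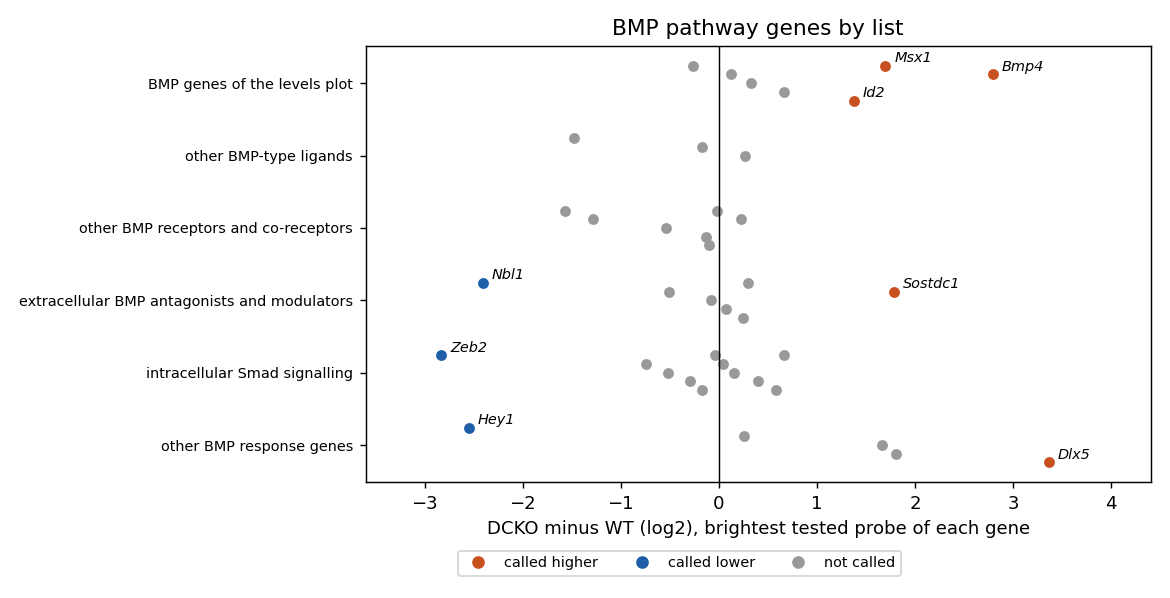
Difference between DCKO and WT on the log2 scale (x axis) of the brightest tested probe of each gene, 1 point per gene, by list (y axis), with genes called in limma named. Among the listed pathway genes outside the first row, Dlx5 and Sostdc1 were called higher and Zeb2, Hey1 and Nbl1 lower.

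Markers of other cells moved between genotypes beside Bmp4, Msx1, Id2 and Dlx5. Mesenchyme of the head can express each of these genes, but the optic vesicle also makes Bmp4 and craniofacial ectoderm Dlx5. Of 8 periocular mesenchyme and neural crest markers, 3 were tested: Pdgfra was called lower, Prrx1 was called higher by a probe undetected in WT, and Foxc1 was not called. They summed to 4305 to 4723 on the WT arrays, most of it Pdgfra, and to 558 to 1014 on the DCKO arrays. Leaving out Pdgfra, a choice made after its values were seen, the sums were 108 to 223 and 326 to 573. Twist1 and Col3a1 were undetected on all WT arrays and Col1a1 on all DCKO arrays. Of 6 surface ectoderm markers, Krt8 and Trp63 were called higher and 4 were not called, and the DCKO arrays lay wholly above the WT arrays for 4 and wholly below for 1, Cdh1. Their sums overlapped with Cdh1, and without it, also a choice made after its values were seen, they were 1865 to 2114 in WT and 3952 to 4693 in DCKO. Neuronal markers (3 of 6 tested, with Isl1 called higher) summed to 181 to 279 in WT and 434 to 738 in DCKO. Among them, Neurog2 was not called by its brightest probe, which passed the filter through its DCKO arrays alone. Elavl3 went the other way, by -0.63 on the log2 scale with overlap, and was not called. Optic vesicle and retina markers, of which Six6 was undetected throughout, summed to 282 to 428 and 214 to 237. Most of the WT sums was Mitf, while Rax differed by 0.51 with overlap, and neither was called. Endothelial markers summed to 204 to 485 and 109 to 195, and erythroid markers to 4027 to 5046 and 2576 to 2994. The part of these cells in the levels of the BMP genes was not tested.

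**Figure D5:**
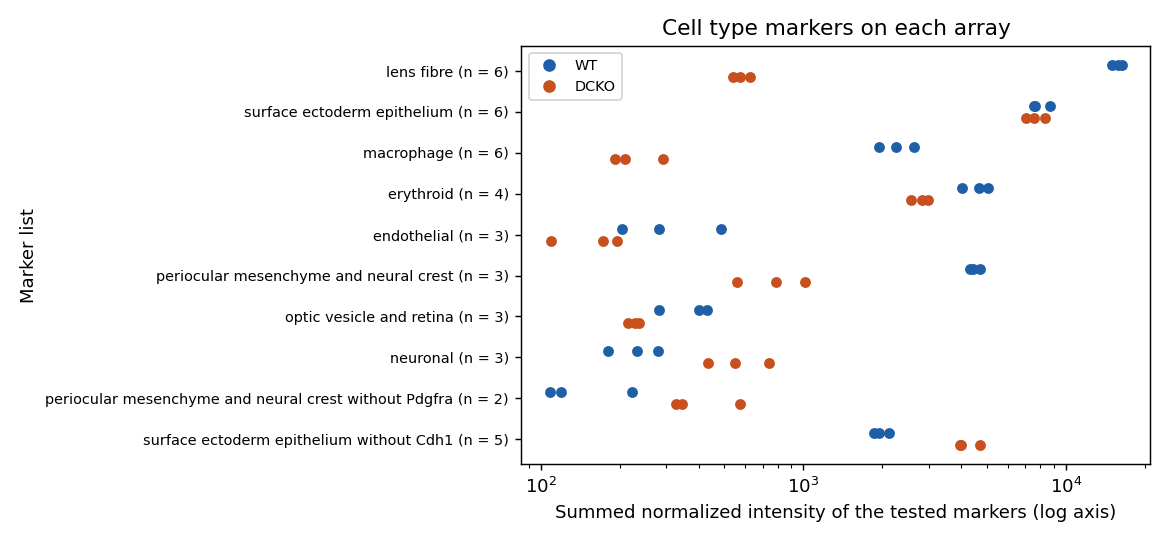
Summed normalized intensity of the tested markers of each cell type (x axis, log scale) on each array, by marker list (y axis). The WT arrays lie above the DCKO arrays for lens fibre and macrophage markers, the surface ectoderm list overlaps with Cdh1 and lies higher in DCKO without it, and the mesenchyme list lies lower in DCKO with Pdgfra and higher without it. Both removals were chosen after the values were seen. Without Pdgfra the mesenchyme list holds 2 genes, of which Prrx1 passed the detection filter through its DCKO arrays alone.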

How the data were processed

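RNA of 6 samples was measured on Illumina MouseWG-6 v2.0 arrays, all on 1 chip. The authors deposited bead intensities without background subtraction or normalization, with detection p-values from GenomeStudio (its version is not given in the sources used here), bead numbers and bead standard errors, and separately a table of processed intensities that their methods describe as cubic spline normalized. The bead intensities were turned into log2 values by the neqc function (limma 3.58.1, R 4.3.3), which models the background by normexp with the detection p-values, adds an offset of 16 and normalizes by quantiles, and lmFit and eBayes were run with genotype alone. In the processed table, log2 was taken after values under 16 were set to 16.

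The 10 genes, all pathway and marker lists and the naming rule were chosen with earlier results of these data known. It takes every probe of the 10 genes, each pathway gene called by its brightest probe, and Bmpr2, Acvr1, Smad1, Smad5, Smad4, Nog and Fst. Id4 was named outside that rule. Of 45281 probes, 34885 carry 1 gene symbol, 18 several and 10378 none. Positions come from RefSeq tables of GRCm38.p6. A lower bound on a fold sets undetected arrays at the higher of their dimmest detected value and the probe's own. Marker sums take the brightest tested probe of each gene. Alternatives were other background corrections, scalings, filters, thresholds and moderation, the processed values, a replicate block, each array left out and the average over probes of a gene. The script was tested on simulated data. The number of arrays limits the precision.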

Additional observations from a re-analysis of the deposited data

How the results depend on the processing

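Bmp4, Msx1, Id1, Id2, Id3 and Bmpr1a kept a positive difference under all 22 alternatives. Bmpr1a ranged from 0.0033 to 0.34 on the log2 scale and was never called, and its dimmer probe differed by -0.12 under the main settings. The range was 1.48 to 3.40 for Bmp4, 0.58 to 2.01 for Msx1 and 0.92 to 1.56 for Id2. The 0.92 is of a second Id2 probe, the brightest without DCKO replicate 3. With the first probe kept, a check added after seeing the data, Id2 was 1.26 there. Of the 3 BMP genes called higher, 1 was called at an adjusted p under 0.01. Whether replicate numbers in the labels pair the arrays is not settled. Same-number deviations correlated at 0.0104 to 0.0333 and those of other pairs at -0.0336 to 0.000806, all of them small. A replicate block left 0 of the 3, 1 pathway gene higher, and 52 probes higher and 167 lower, against 346 and 549 without it. At an adjusted p under 0.01, 1 pathway gene was higher, and 53 probes were higher and 165 lower. With a detection p under 0.01, or the mean of a gene's probes, 4 pathway genes were higher. With no between-array normalization, the median of all probes moved to 0.123 and 53.3% of calls were lower, against 61.3%.

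Leaving out each array gave 1 BMP gene higher and 0 lower, 1 to 2 pathway genes higher and 2 to 3 lower, and 59 to 229 probes higher and 171 to 412 lower. These fits kept the detection filter of all 6 arrays. That was chosen after a first version, with the filter remade on the other 5 arrays, had been seen to give fewer calls: 0 to 1 BMP genes higher and 0 lower, 1 to 2 pathway genes higher and 0 to 3 lower, and 12 to 141 probes higher and 12 to 395 lower. Probes higher and lower were 19 and 28 without WT replicate 1, 18 and 25 without WT replicate 2, 109 and 320 without DCKO replicate 2, and 124 higher without DCKO replicate 3. Remaking the filter drops probes detected on only the 3 arrays of 1 genotype when the left-out array is among them. Under it, 0 of the 3 BMP genes stayed called without any 1 WT array and Msx1 alone without any 1 DCKO array, and Bmp4 was lost without WT replicate 3 too (limma adjusted p = 0.0624). Nbl1 was then not tested without any 1 WT array, and Hey1 and Sostdc1 were not called there.

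Signs that turned were of genes that had not been called. With an array left out, Bmp7 ranged from -0.66 to 0.15, the latter without DCKO replicate 3, Bmpr2 from -0.44 to 0.075 and Smad1 from -0.32 to 0.083, alike under both filters. Bmpr2 became 0.025 with no between-array normalization and 0.075 without DCKO replicate 2. Smad1 became 0.025 with no between-array normalization, 0.083 without DCKO replicate 3 and 0.25 with the mean of a gene's probes. Genes near background, such as Smad6, Msx2 and Bmp2, could not be compared at this signal.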
